A study of Mus musculus with 10 samples.

Results

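The C-type lectin endocytic and pattern receptors described here were all genes on the array whose symbol begins with Clec or Cd209, together with Mgl2, Mrc1 and Ly75. Clec4a4 and Clec9a, markers of particular dendritic cell subsets, were left out of the set, which left 41 of the 43 symbols found and 41 of 19938 genes measured in all. The choice was made by gene name, with earlier results of these data known. Each gene was read from 1 probe set, the brightest where a symbol had several (only Clec4g did). The cells were conventional dendritic cells of the cDC2 type sorted from mouse spleen, and their total RNA had been measured on one-colour Affymetrix microarrays. The study compared mice lacking Notch2 in CD11c-expressing cells with wild-type mice, with and without immunisation with sheep red blood cells (SRBC), an antigen carried on foreign cells.

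There were 4 groups. Notch2-11cKO SRBC (3 arrays) held CD11c-Cre Notch2f/f mice taken 24 h after an intraperitoneal injection of 200000000 SRBC, and Notch2-11cKO untreated (2 arrays) held mice of that genotype without injection. WT SRBC (3 arrays) and WT untreated (2 arrays) were the wild-type counterparts. In CD11c-Cre mice the recombinase is driven by the Itgax promoter, so that deletion falls on CD11c-expressing cells and is not limited to cDC2. The labels give no strain, age or sex, and do not say whether the WT mice carried Cre. They also do not say that replicates came from separate mice, so p-values measure the spread between these arrays, which may be technical. The number of arrays per group limits the precision of every value.

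C-type lectins share a compact domain that in many members binds sugars with the help of calcium. In dendritic cells and macrophages, one set of these proteins takes up glycosylated cargo for antigen presentation. Another set recognises microbial cell walls or damaged cells and signals through tyrosine motifs to the kinase Syk and the adaptor Card9. These motifs are in the receptor itself or in the partner chains FcRγ (Fcer1g) and DAP12 (Tyrobp). DAP10 (Hcst) is another partner chain of some members. A further set carries inhibitory motifs that recruit phosphatases. In mouse most of these genes lie in clusters, and here 23 of the 41 members were on chromosome 6 and 10 on chromosome 8 (RefSeq, GRCm38.p6).

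Values are log2 of the deposited normalised intensity, so that a difference of 1 is a doubling, and array medians of the linear intensity ranged between 29.5 and 31.7. The general dendritic cell genes Itgax (9.02 to 10.51), Zbtb46 (5.97 to 7.19) and Flt3 (8.50 to 9.79) and the cDC2 gene Sirpa (9.51 to 10.66) were all above the median gene mean of 5.06 on every array. Of 10 cDC2 markers, 2 were higher (Cd209a, a member of the set, and Itgam) and 3 lower in Notch2-11cKO after SRBC (limma adjusted p under 0.05). In untreated cells 1 was higher (Cd209a) and 4 lower, among them Dtx1 (−2.41) and Esam (−1.84). Of all genes, 5.32% passed after SRBC and 5.11% untreated. The list's median difference was −0.27 after SRBC and −1.04 untreated. Itgam, the gene of CD11b, was at 8.18 to 8.42 in Notch2-11cKO SRBC, 8.58 to 8.68 in Notch2-11cKO untreated, 6.26 to 6.79 in WT SRBC and 7.94 in both WT untreated arrays. Notch2 itself was at 7.23 to 7.96 in Notch2-11cKO SRBC, 8.17 to 8.37 in Notch2-11cKO untreated, 7.09 to 7.58 in WT SRBC and 8.11 to 8.14 in WT untreated. The position of its probes relative to the floxed part is not known here, so this signal does not check the genotype. A pair of arrays stood apart from their groups: WT SRBC array 1 correlated with arrays 2 and 3 at r = 0.929 and 0.928, against 0.984 between those, and Notch2-11cKO SRBC array 3 correlated with arrays 1 and 2 at 0.947 and 0.936, against 0.972. Calls of members that change without them are given both ways.

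Many of these receptors were higher in Notch2-11cKO cells, and more of them passed between genotypes than between SRBC and untreated cells. After SRBC, 16 of 41 members differed between Notch2-11cKO and WT cells, 15 higher and 1 lower (limma, Benjamini-Hochberg adjusted p under 0.05 over all genes), whereas 5.32% of all genes passed the same test, 3.36% higher and 1.96% lower. In untreated cells 15 of 41 differed, all of them higher in Notch2-11cKO, against 5.11% of all genes in either direction, 2.95% higher and 2.16% lower. These counts leave out Clec4a4, which was lower in Notch2-11cKO in both treatments, and Clec9a, which was higher in untreated cells. SRBC changed 4 members in Notch2-11cKO cells (1 higher, 3 lower), where 0.306% of all genes were called, 0.14% higher and 0.166% lower. In WT cells SRBC changed 7 members (4 higher, 3 lower), where 3.79% of all genes were called, 1.82% higher and 1.97% lower.

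The median difference over the 41 members was 0.21 after SRBC and 0.34 untreated for Notch2-11cKO minus WT, and −0.02 over all genes in each case. For SRBC minus untreated the member medians were −0.02 in Notch2-11cKO and 0.05 in WT, beside 0.03 and 0.02 over all genes. In all, 19 members passed in at least 1 comparison. Of these, 16 had a mean above that of the median gene, while 17 of the 22 members that never passed were at or below it. Which members were dim enough to be near the array background was not tested.

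**Figure D1:**
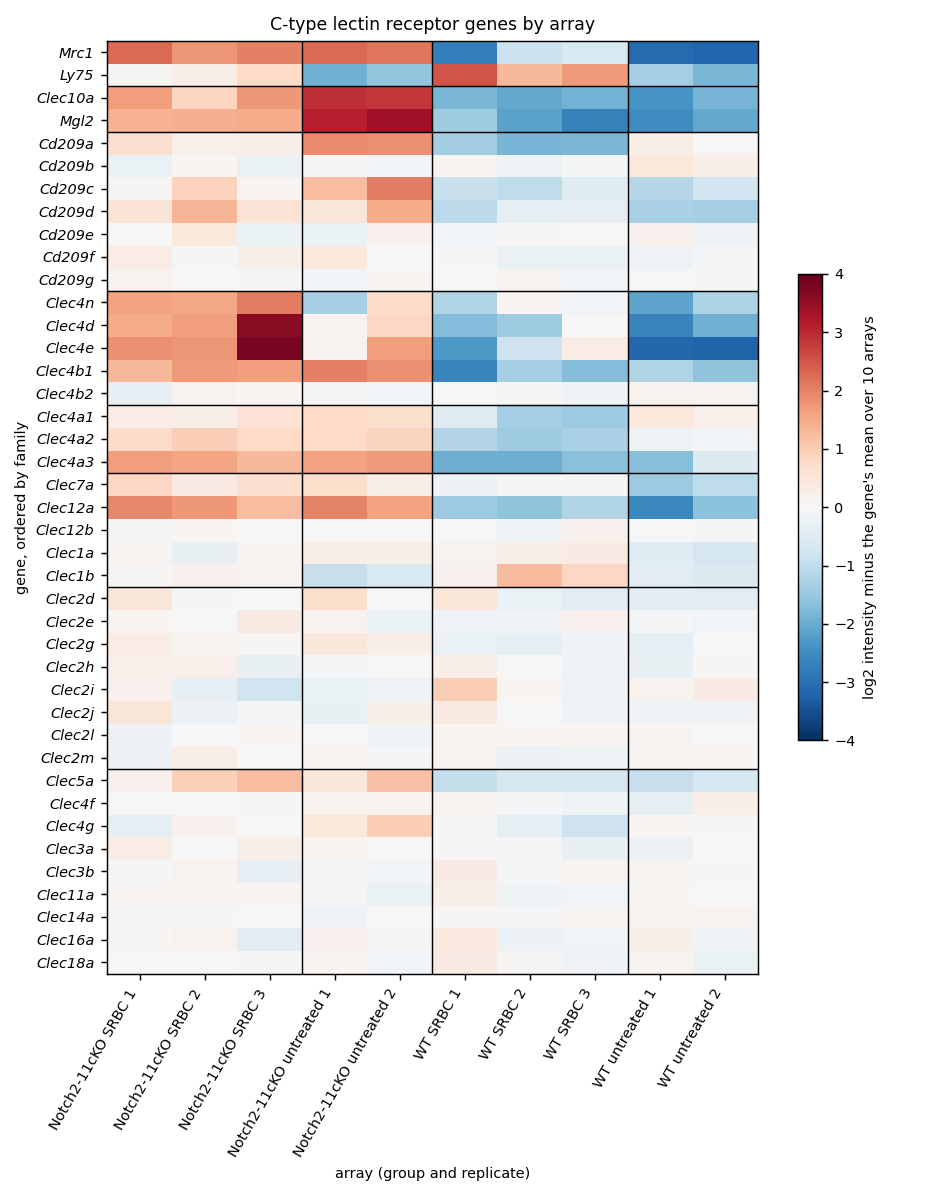
Heat map of the 41 members (rows, by receptor family) on the 10 arrays (columns, by group), with colour giving the log2 intensity minus the gene's mean over the 10 arrays, limited to 4 either way. Mgl2, Clec10a, Mrc1, Clec12a, Clec4b1 and Clec4e were above their own mean on all 5 Notch2-11cKO arrays, and the 8 Clec2 genes stayed nearer to their own means.

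The arrays were of bulk RNA, in which more cells of a type and more RNA per cell cannot be told apart, and several receptors of this set are also made by macrophages, monocytes or neutrophils. Of 16 macrophage markers 9 were higher in Notch2-11cKO than in WT after SRBC and 9 in untreated cells, and after SRBC relative to untreated cells none rose in Notch2-11cKO and 4 in WT. Of all genes, 0.14% rose after SRBC in Notch2-11cKO and 1.82% in WT. Among the macrophage markers C1qa, a complement gene of tissue macrophages, was higher in Notch2-11cKO by 1.79 ± 0.17 (SE) after SRBC and 2.46 ± 0.21 in untreated cells. The summed linear intensity of the 16 was 3809 to 4831 in Notch2-11cKO SRBC, 4066 to 4931 in Notch2-11cKO untreated, 1815 to 2615 in WT SRBC and 1095 to 1171 in WT untreated. Of 12 monocyte markers measured, 7 were higher after SRBC; in untreated cells 6 were higher and 1 lower. Their sums were 18765 to 20537 in Notch2-11cKO SRBC, 19626 to 19766 in Notch2-11cKO untreated, 7992 to 9944 in WT SRBC and 11277 to 12649 in WT untreated. Of 8 markers of plasmacytoid dendritic cells, 3 were higher after SRBC and 2 in untreated cells, while 5 and 6 did not pass. Among those that did not, Siglech differed by 0.05 ± 0.16 after SRBC (limma adjusted p = 0.921) and 0.04 ± 0.20 untreated (0.976). The sums of the 8 were 896 to 1293 in Notch2-11cKO SRBC, 867 to 1020 in Notch2-11cKO untreated, 513 to 578 in WT SRBC and 475 to 557 in WT untreated. The sums of all these lists were higher on every Notch2-11cKO array than on every WT array, and their part in the differences below was not tested.

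The set held 2 members of the mannose receptor family, and after SRBC they differed between the genotypes in opposite directions. Mrc1 encodes the mannose receptor CD206, which takes up ligands ending in mannose, fucose or N-acetylglucosamine, and it was high on every Notch2-11cKO array. It stood at 9.46, 8.99 and 9.23 in Notch2-11cKO SRBC, against 4.46, 6.35 and 6.61 in WT SRBC, and at 9.47 and 9.35 in Notch2-11cKO untreated, against 4.13 and 4.04 in WT untreated. The genotypes did not overlap in either treatment, and the 3 WT SRBC arrays were spread over more than 2 log2 units. The difference was 3.42 ± 0.44 after SRBC (10.7-fold, limma adjusted p = 0.00086) and 5.32 ± 0.53 in untreated cells (40-fold, 0.000153). Without WT SRBC array 1, where Mrc1 was lowest of its group, the difference after SRBC was 2.75 (6.71-fold, 1.45e-05). SRBC minus untreated was −0.18 ± 0.49 in Notch2-11cKO (0.945) and 1.72 ± 0.49 in WT (0.0801). Leaving out that array gave 2.40 ± 0.20 in WT (0.000224).

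Ly75 encodes DEC-205 (CD205), a receptor that carries captured antigen into the class II pathway. It was higher after SRBC in both genotypes, and stood at 7.16, 7.37 and 7.91 in Notch2-11cKO SRBC, against 5.19 and 5.53 in Notch2-11cKO untreated, and at 9.63, 8.41 and 8.79 in WT SRBC, against 5.73 and 5.27 in WT untreated. Every SRBC array was above every untreated array, and after SRBC every Notch2-11cKO array was below every WT array. The response was 2.11 ± 0.34 in Notch2-11cKO (4.33-fold, adjusted p = 0.0339) and 3.44 ± 0.34 in WT (10.9-fold, 0.000591). After SRBC Ly75 was the only member that passed as lower in Notch2-11cKO, by −1.47 ± 0.30 (2.77 times lower, 0.0167), whereas untreated cells differed by −0.14 ± 0.37 (95% interval −0.96 to 0.68, 0.948). That genotype call was lost without Notch2-11cKO SRBC array 1 (−1.31, 0.0743) or array 2 (−1.41, 0.0648).

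The macrophage galactose-type lectins Mgl2 (CD301b) and Clec10a (MGL1, CD301a) bind galactose and N-acetylgalactosamine and mark subsets of dendritic cells and macrophages. Both were below the median gene on every WT array. Mgl2 was at 7.06, 7.09 and 7.17 in Notch2-11cKO SRBC, against 4.26, 3.55 and 2.98 in WT SRBC, and at 8.80 and 9.08 in Notch2-11cKO untreated, against 3.20 and 3.64 in WT untreated. Clec10a was at 7.38, 6.59 and 7.44 in Notch2-11cKO SRBC, against 3.88, 3.66 and 3.83 in WT SRBC, and at 8.63 and 8.56 in Notch2-11cKO untreated, against 3.35 and 3.85 in WT untreated. For both genes the genotypes were far apart, and the Notch2-11cKO SRBC arrays lay below the Notch2-11cKO untreated arrays.

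Among the 41 members Mgl2 had the largest genotype difference in both treatments, 3.51 ± 0.27 after SRBC (11.4-fold, adjusted p = 2.42e-05) and 5.52 ± 0.33 in untreated cells (45.9-fold, 5.13e-06). For Clec10a it was 3.35 ± 0.22 (10.2-fold, 1.21e-05) and 5.0 ± 0.27 (31.9-fold, 2.82e-06). Within Notch2-11cKO cells both fell after SRBC, Mgl2 by −1.84 ± 0.30 (0.0339) and Clec10a by −1.46 ± 0.25 (0.041). In WT cells the same comparison gave 0.17 ± 0.30 (0.835) and 0.19 ± 0.25 (0.776), at levels already below the median gene. Both genes' coding sequences are similar, and cross-hybridisation between their probe sets was not tested.

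The start-site windows of 4 members are printed to show the DNA beside these differences: Mgl2 and Mrc1, among the largest genotype differences, Ly75, the largest SRBC response, and Cd209a, which fell after SRBC in both genotypes. Each runs from 250 bases before to 50 bases after the RefSeq start (GRCm38.p6), 5′ to 3′ on the gene's strand. Capitals mark any match to GAGGAA (PU.1) or to the NF-kB consensus, read on either strand.
Mgl2 (chr11:70130107-70130406, plus strand): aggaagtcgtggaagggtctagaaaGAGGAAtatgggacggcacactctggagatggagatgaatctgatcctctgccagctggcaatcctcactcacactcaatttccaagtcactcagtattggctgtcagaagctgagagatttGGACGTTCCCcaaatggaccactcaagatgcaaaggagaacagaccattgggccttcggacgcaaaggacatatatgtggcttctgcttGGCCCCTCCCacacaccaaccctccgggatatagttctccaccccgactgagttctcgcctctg
Mrc1 (chr2:14229164-14229463, plus strand): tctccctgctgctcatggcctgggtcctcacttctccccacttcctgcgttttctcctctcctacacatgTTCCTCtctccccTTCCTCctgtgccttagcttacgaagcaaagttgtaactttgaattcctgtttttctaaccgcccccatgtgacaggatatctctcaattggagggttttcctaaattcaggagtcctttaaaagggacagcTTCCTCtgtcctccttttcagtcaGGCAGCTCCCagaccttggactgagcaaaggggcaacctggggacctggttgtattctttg
Ly75 (chr2:60383224-60383523, minus strand): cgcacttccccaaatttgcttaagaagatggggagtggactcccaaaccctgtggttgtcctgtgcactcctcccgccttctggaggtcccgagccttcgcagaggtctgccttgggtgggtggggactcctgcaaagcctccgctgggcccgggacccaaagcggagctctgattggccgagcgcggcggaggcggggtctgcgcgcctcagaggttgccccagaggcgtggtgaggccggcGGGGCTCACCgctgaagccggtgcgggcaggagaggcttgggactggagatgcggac
Cd209a (chr8:3748935-3749234, minus strand): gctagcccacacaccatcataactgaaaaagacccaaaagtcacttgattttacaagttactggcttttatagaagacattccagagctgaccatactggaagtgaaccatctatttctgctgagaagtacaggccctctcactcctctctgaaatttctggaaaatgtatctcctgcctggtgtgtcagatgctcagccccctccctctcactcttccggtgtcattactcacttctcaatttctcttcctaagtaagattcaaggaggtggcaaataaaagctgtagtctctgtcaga

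Windows were available for 35 members, Clec10a and Clec4n not among them, and for 27025 promoters in all. GAGGAA was found in 17 of the 35 member windows (48.6%), against 28.3% of all windows. Among the 12 windows of members higher in Notch2-11cKO in both treatments, 8 held it, those of Mgl2, Mrc1, Clec4d, Clec4e, Clec4b1, Clec12a, Clec5a and Cd209d. TGGGAA, the core bound by RBPJ, the DNA-binding partner of Notch, was in 8 of 35 windows (22.9%), against 25.5% of all, and in 2 of the 12, Cd209d and Clec4b1. The NF-kB consensus was in 12 (34.3%), against 50.4% of all. TGANTCA (AP-1) was in 8 (22.9%), against 7.93%, and the IRF consensus in 3 (8.57%), against 3.49%. Matches of different motifs may overlap. The Cd209a window matched none of these 5 motifs. A match is a string of letters in this window and not evidence of binding.

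**Figure D2:**
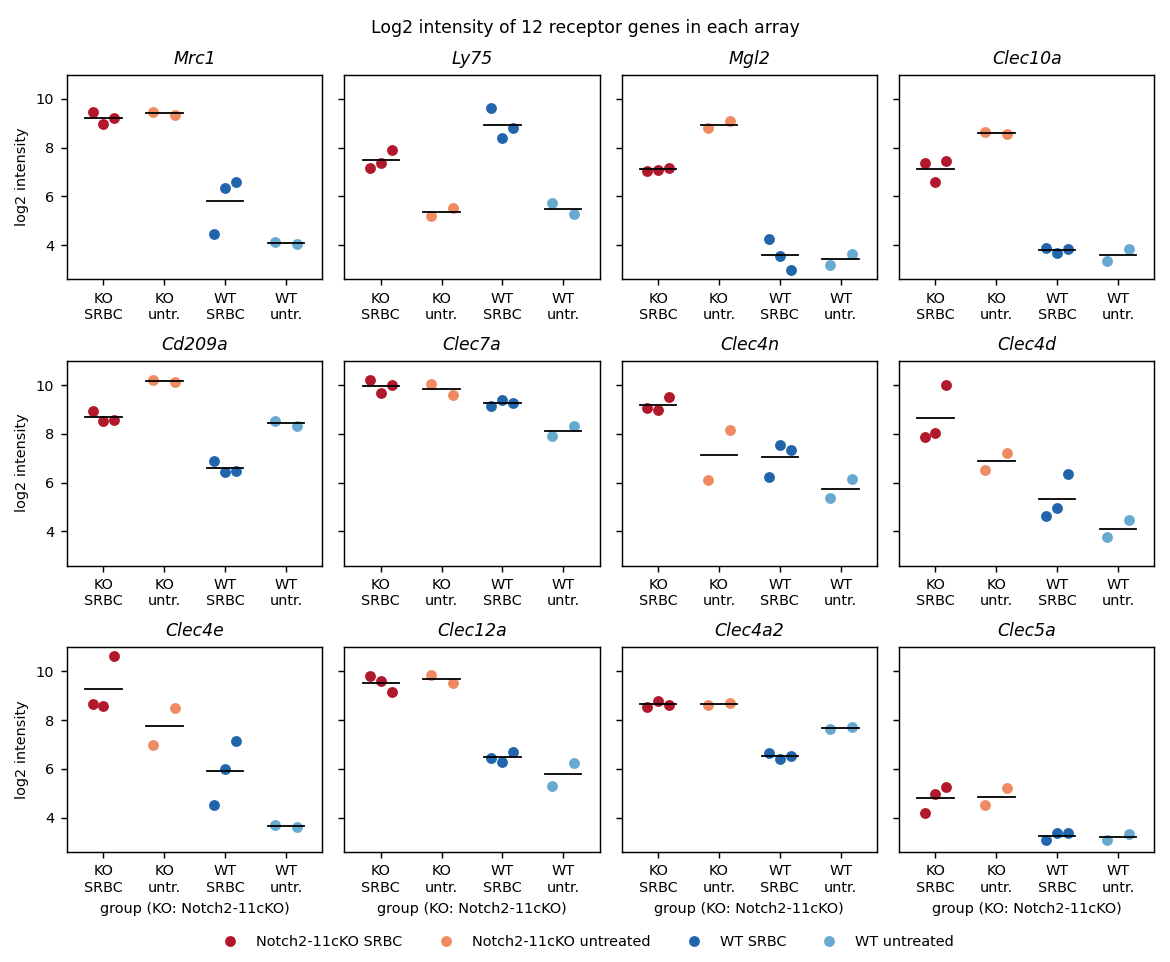
Log2 intensity of 12 members on each array, 1 panel per gene, with groups along the horizontal axis (Notch2-11cKO SRBC, Notch2-11cKO untreated, WT SRBC, WT untreated), points for arrays and lines for group means. Mgl2, Clec10a, Mrc1 and Clec12a separated the genotypes in both treatments, whereas Ly75 separated SRBC from untreated arrays in both genotypes.

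Of the 7 members of the DC-SIGN family, many of which bind high-mannose and fucosylated glycans, 3 were higher in Notch2-11cKO after SRBC and in untreated cells (Cd209a, Cd209c and Cd209d), and 4 passed in no comparison. Cd209a, the mouse DC-SIGN gene and a common marker of cDC2 and monocyte-derived cells, was well measured in all groups. It was at 8.94, 8.51 and 8.58 in Notch2-11cKO SRBC, against 6.90, 6.45 and 6.46 in WT SRBC, and at 10.20 and 10.12 in Notch2-11cKO untreated, against 8.53 and 8.33 in WT untreated. No 2 groups compared overlapped. The genotype difference was 2.07 ± 0.19 after SRBC (4.21-fold, adjusted p = 7.16e-05) and 1.73 ± 0.23 in untreated cells (3.32-fold, 0.000921).

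Cd209a was also the member that fell after SRBC in both genotypes. It fell by −1.49 ± 0.21 in Notch2-11cKO cells (2.8 times lower, adjusted p = 0.019) and by −1.83 ± 0.21 in WT cells (3.55 times lower, 0.00112). The difference between these responses was 0.34 ± 0.29 (0.947).

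Cd209c (SIGNR2) was at 5.58, 6.48 and 5.62 in Notch2-11cKO SRBC, against 4.65, 4.53 and 5.05 in WT SRBC, and at 6.79 and 7.58 in Notch2-11cKO untreated, against 4.41 and 4.79 in WT untreated. Cd209d (SIGNR3), a receptor for mycobacteria, was at 5.81, 6.67 and 5.86 in Notch2-11cKO SRBC, against 4.26, 4.90 and 4.97 in WT SRBC, and at 5.80 and 6.78 in Notch2-11cKO untreated, against 4.02 and 3.97 in WT untreated. Neither gene's genotypes overlapped, although the Notch2-11cKO arrays were spread over about 1 log2 unit. Cd209c differed by 1.15 ± 0.27 after SRBC (adjusted p = 0.0322) and 2.59 ± 0.33 untreated (0.00082), and Cd209d by 1.40 ± 0.29 (0.0172) and 2.30 ± 0.36 (0.00287).

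The SRBC call of Cd209c was lost when any of 5 arrays was left out, WT untreated 1 (adjusted p = 0.0527) or 2 (0.0526), WT SRBC 1 (0.0634) or 2 (0.116), or Notch2-11cKO SRBC 2 (0.102), and that of Cd209d without Notch2-11cKO SRBC 2 (0.0644). Cd209b, the gene of SIGNR1 on marginal zone macrophages, was at 3.51 to 3.87 in Notch2-11cKO SRBC, 3.66 to 3.83 in Notch2-11cKO untreated, 3.58 to 3.87 in WT SRBC and 4.03 to 4.21 in WT untreated. On no array did Cd209b, Cd209e, Cd209f or Cd209g reach the level of the median gene.

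The stretch of chromosome 6 between Clec4a1 and Clec4e holds 8 members, and 7 of them passed in at least 1 comparison. It contains the Dectin-2 group of activating receptors, which pair with FcRγ, and the DCIR family. Of the 5 activating members 4 were higher in Notch2-11cKO after SRBC and 3 in untreated cells, and Clec4b2 (3.53 to 4.0 over all arrays) passed in none. None of the 5 passed for SRBC in either genotype on all 10 arrays. Without WT SRBC array 1 and Notch2-11cKO SRBC array 3 together, 3 of them rose after SRBC in WT, Clec4d by 1.57 ± 0.39 (adjusted p = 0.024), Clec4e by 2.92 ± 0.43 (0.00111) and Clec4n by 1.68 ± 0.49 (0.0499).

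Clec4n encodes Dectin-2, a receptor for fungal mannans. It was at 9.06, 9.0 and 9.50 in Notch2-11cKO SRBC, against 6.24, 7.54 and 7.33 in WT SRBC, and at 6.12 and 8.17 in Notch2-11cKO untreated, against 5.35 and 6.17 in WT untreated. The SRBC groups did not overlap, while the untreated groups did. The difference was 2.15 ± 0.48 after SRBC (4.43-fold, adjusted p = 0.0244) and 1.38 ± 0.59 in untreated cells (95% interval 0.09 to 2.67, 0.296). The SRBC call was lost without WT SRBC 1 (0.0548) or 3 (0.0515) or without Notch2-11cKO SRBC 1 (0.0682), 2 (0.0649) or 3 (0.0561), as it was without both arrays that stood apart (1.59, 0.0605). Without Notch2-11cKO untreated 1 the untreated difference of 2.41 passed (0.0418).

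Clec4d (MCL) and Clec4e (Mincle) are neighbouring genes whose products recognise mycobacterial cord factor, and Mincle also binds a ribonucleoprotein released by dying cells. Clec4d was at 7.88, 8.05 and 10.01 in Notch2-11cKO SRBC, against 4.64, 4.98 and 6.37 in WT SRBC, and at 6.52 and 7.23 in Notch2-11cKO untreated, against 3.75 and 4.46 in WT untreated. Clec4e was at 8.67, 8.60 and 10.62 in Notch2-11cKO SRBC, against 4.53, 6.01 and 7.14 in WT SRBC, and at 6.97 and 8.51 in Notch2-11cKO untreated, against 3.68 and 3.63 in WT untreated. In both genes Notch2-11cKO SRBC array 3 and WT SRBC array 3 were the highest of their groups, so the spread was wide, yet genotypes did not overlap.

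Clec4d differed by 3.31 ± 0.56 after SRBC (9.95-fold, adjusted p = 0.00496) and 2.77 ± 0.68 untreated (6.82-fold, 0.04), and Clec4e by 3.40 ± 0.67 (10.5-fold, 0.0125) and 4.09 ± 0.82 (17-fold, 0.0132). Their SRBC responses did not pass in Notch2-11cKO (1.77 ± 0.62, 0.35, and 1.56 ± 0.75, 0.529) or in WT (1.22 ± 0.62, 0.363, and 2.24 ± 0.75, 0.135). With WT SRBC array 1 alone left out the WT response of Clec4e was 2.92 ± 0.66 (0.0257). The genotype calls of both genes after SRBC held with any single array left out, but their size did not. Without Notch2-11cKO SRBC 3 the differences were 6.2-fold for Clec4d and 6.67-fold for Clec4e, and without both arrays that stood apart 4.89-fold and 4.16-fold. That of Clec4e was 6.58-fold without WT SRBC 1 and 16.2-fold without WT SRBC 3. In untreated cells that of Clec4e was 28.9-fold without Notch2-11cKO untreated 1 and 9.97-fold without Notch2-11cKO untreated 2. The untreated calls of both genes could be lost. That of Clec4d was lost without Notch2-11cKO untreated 1 (0.118) or 2 (0.262), WT untreated 1 (0.286) or 2 (0.123), Notch2-11cKO SRBC 2 (0.0503) or WT SRBC 2 (0.0564), and that of Clec4e without Notch2-11cKO untreated 2 (0.132) or WT untreated 1 (0.101) or 2 (0.0995).

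Neutrophils and inflammatory monocytes also express Clec4d and Clec4e. Of 10 neutrophil markers 2 were higher in Notch2-11cKO after SRBC and 1 in untreated cells, and S100a8 rose after SRBC by 3.07 ± 0.46 in Notch2-11cKO and 2.85 ± 0.46 in WT. For SRBC minus untreated 9 of the 10 did not pass in either genotype, and the list's median was 0.2 in Notch2-11cKO and 0.03 in WT. The summed intensity of the 10 was 1157, 973 and 501 in Notch2-11cKO SRBC, 259 and 468 in Notch2-11cKO untreated, 381, 364 and 485 in WT SRBC, and 220 and 238 in WT untreated. Notch2-11cKO SRBC array 3, highest for Clec4d and Clec4e, had the lowest neutrophil sum of its group. Its monocyte sum was 20537, against 19526 and 18765 on arrays 1 and 2, but array 3 was highest only because Cd14 is counted in these sums. Cd14 was at 11.91 on array 3, against 10.54 and 10.6 on arrays 1 and 2. Ccr2, also counted, was lowest of its group on array 3, at 9.32, against 10.06 and 9.84. The part of either cell type in these values was not tested.

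Clec4b1 encodes DCAR, a further receptor that signals through FcRγ. It was at 8.98, 9.39 and 9.33 in Notch2-11cKO SRBC, against 5.05, 6.35 and 5.94 in WT SRBC, and at 9.70 and 9.52 in Notch2-11cKO untreated, against 6.49 and 6.08 in WT untreated. The Notch2-11cKO arrays were close together and more than 2 log2 units above every WT array. The differences of 3.45 ± 0.29 after SRBC (11-fold, adjusted p = 5.04e-05) and 3.32 ± 0.36 untreated (9.98-fold, 0.000237) were nearly equal.

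The 3 DCIR family members Clec4a1, Clec4a2 and Clec4a3 were all higher in Notch2-11cKO after SRBC, and 2 of them in untreated cells. Clec4a2 (DCIR1) carries an inhibitory motif that recruits phosphatases. It was at 8.55, 8.79 and 8.61 in Notch2-11cKO SRBC, against 6.64, 6.40 and 6.52 in WT SRBC, and at 8.61 and 8.72 in Notch2-11cKO untreated, against 7.62 and 7.71 in WT untreated. Arrays within each group were within 0.3 of each other, and the Notch2-11cKO groups overlapped each other while the WT groups did not. SRBC lowered Clec4a2 in WT by −1.14 ± 0.17 (2.21 times lower, adjusted p = 0.00433), whereas in Notch2-11cKO the difference was −0.01 ± 0.17 (0.99). The genotype difference was 2.13 ± 0.15 after SRBC (4.38-fold, 1.98e-05) and 1.00 ± 0.19 in untreated cells (2-fold, 0.00936).

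Clec4a1 (DCIR4) was at 9.35, 9.32 and 9.62 in Notch2-11cKO SRBC, against 8.55, 7.69 and 7.60 in WT SRBC, and at 9.85 and 9.76 in Notch2-11cKO untreated, against 9.46 and 9.25 in WT untreated. The genotypes were apart in both treatments, narrowly so without SRBC. The difference passed after SRBC (1.48 ± 0.24, adjusted p = 0.00344) and not in untreated cells (0.45 ± 0.29, 0.579). In WT cells Clec4a1 fell after SRBC by −1.41 ± 0.26 (2.65 times lower, 0.0142), beside −0.37 ± 0.26 in Notch2-11cKO (0.708).

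Clec4a3 (DCIR3) was at 10.29, 10.21 and 9.93 in Notch2-11cKO SRBC, against 6.67, 6.68 and 6.97 in WT SRBC, and at 10.25 and 10.32 in Notch2-11cKO untreated, against 6.93 and 8.07 in WT untreated. All 5 Notch2-11cKO arrays were far above all 5 WT arrays. The difference was 3.36 ± 0.25 after SRBC (10.3-fold, 2.42e-05) and 2.79 ± 0.31 untreated (6.91-fold, 0.000311). Clec4a4 (DCIR2), a neighbour left out of the set, ran the other way, at 4.48, 3.23 and 3.89 in Notch2-11cKO SRBC, against 6.33, 7.06 and 6.93 in WT SRBC, and at 3.94 and 3.73 in Notch2-11cKO untreated, against 7.71 and 8.13 in WT untreated. It was lower in Notch2-11cKO by −2.91 ± 0.29 after SRBC (0.000146) and −4.09 ± 0.35 in untreated cells (5.84e-05).

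The untreated genotype call of Clec4a2 was lost without either Notch2-11cKO untreated array (1.05, adjusted p = 0.0608, and 0.94, 0.0845) or either WT untreated array (0.95, 0.102, and 1.04, 0.0643). Its fall after SRBC in WT was lost without WT untreated 1 (0.0702) or 2 (0.0659). That of Clec4a1 was lost without WT untreated 1 (0.185) or 2 (0.0916) or WT SRBC 2 (0.0544) or 3 (0.0522).

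The Dectin-1 cluster had 5 members, of which 1 was higher in Notch2-11cKO after SRBC and 3 in untreated cells, while 3 rose after SRBC in WT. Clec7a encodes Dectin-1, the receptor for fungal β-glucans, which signals through a single tyrosine motif to Syk. It was at 10.20, 9.67 and 9.99 in Notch2-11cKO SRBC, against 9.13, 9.40 and 9.28 in WT SRBC, and at 10.05 and 9.61 in Notch2-11cKO untreated, against 7.90 and 8.34 in WT untreated. It was bright in all groups and lowest in WT untreated. The difference was 0.68 ± 0.20 after SRBC (adjusted p = 0.0776) and 1.72 ± 0.24 in untreated cells (3.28-fold, 0.00153). Clec7a rose after SRBC in WT by 1.15 ± 0.22 (2.22-fold, 0.0166), beside 0.12 ± 0.22 in Notch2-11cKO (0.917).

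Clec12a encodes MICL, an inhibitory receptor for uric acid crystals. It was at 9.82, 9.62 and 9.14 in Notch2-11cKO SRBC, against 6.45, 6.28 and 6.69 in WT SRBC, and at 9.87 and 9.51 in Notch2-11cKO untreated, against 5.30 and 6.25 in WT untreated. The genotypes were more than 2 log2 units apart. The difference was 3.06 ± 0.26 after SRBC (8.32-fold, adjusted p = 5.61e-05) and 3.92 ± 0.32 untreated (15.1-fold, 4.04e-05). SRBC minus untreated was −0.16 ± 0.29 in Notch2-11cKO (0.914) and 0.70 ± 0.29 in WT (0.252).

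Clec1a and Clec1b were dim and their differences smaller. Clec1a (MelLec), a receptor for fungal melanin, was at 4.43, 4.02 and 4.43 in Notch2-11cKO SRBC, against 4.47, 4.56 and 4.65 in WT SRBC, and at 4.57 and 4.55 in Notch2-11cKO untreated, against 3.85 and 3.66 in WT untreated. The WT untreated arrays lay below all the others, and the Notch2-11cKO SRBC arrays lay between them and the rest. The genotype difference was −0.26 ± 0.13 after SRBC (adjusted p = 0.329) and 0.81 ± 0.16 in untreated cells (0.0119), and the WT response was 0.80 ± 0.14 (0.0117). Clec1b encodes CLEC-2, a receptor for podoplanin on platelets and dendritic cells. It was at 4.92, 5.06 and 5.04 in Notch2-11cKO SRBC, against 3.95 and 4.26 in Notch2-11cKO untreated, and at 5.05, 6.14 and 5.71 in WT SRBC, against 4.42 and 4.30 in WT untreated.

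Every SRBC array of Clec1b was above every untreated array. The response passed in WT (1.27 ± 0.25, 2.42-fold, adjusted p = 0.0179) and not in Notch2-11cKO (0.90 ± 0.25, 0.188), and the difference between the genotypes after SRBC was −0.62 ± 0.22 (0.155). Without WT SRBC array 1 the Notch2-11cKO response passed (0.90 ± 0.16, 0.0314), and so did the genotype difference (−0.91 ± 0.16, 0.00593). Without both arrays that stood apart these were 0.89 ± 0.18 (0.0288) and −0.93 ± 0.18 (0.00517). The summed intensity of 5 platelet markers was 297 to 374 in Notch2-11cKO SRBC, 175 to 210 in Notch2-11cKO untreated, 190 to 196 in WT SRBC and 146 to 150 in WT untreated. Of the 5 markers only Pf4 was higher in Notch2-11cKO, in both treatments, and the other 4 did not pass. The list's median difference between genotypes was −0.05 after SRBC and 0.06 untreated, beside −0.02 over all genes. After SRBC Pf4 was at 6.89, 7.73 and 6.80 in Notch2-11cKO, against 4.11, 4.22 and 4.18 in WT, and it is counted in the sums. The part of these markers in the Clec1b values was not tested. Clec12b, an inhibitory relative, was at 4.03 to 4.38 over all arrays.

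Several calls in this cluster rested on the 4 untreated arrays. The untreated genotype call of Clec1a was lost without Notch2-11cKO untreated 1 (adjusted p = 0.0897) or 2 (0.0714) or WT untreated 1 (0.0502) or 2 (0.124), and its WT response without WT untreated 1 (0.0826) or 2 (0.139). The WT response of Clec1b was lost without WT untreated 1 (0.142) or 2 (0.149) or WT SRBC 3 (0.0605), and that of Clec7a without WT untreated 1 (0.232) or 2 (0.0559) or WT SRBC 2 (0.0595) or 3 (0.0554).

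Of the remaining 17 members, 8 Clec2 genes and 9 others, only Clec5a passed. Clec5a encodes MDL-1, which pairs with DAP12 and DAP10 on myeloid cells. It was at 4.19, 4.97 and 5.26 in Notch2-11cKO SRBC, against 3.07, 3.35 and 3.35 in WT SRBC, and at 4.50 and 5.20 in Notch2-11cKO untreated, against 3.10 and 3.33 in WT untreated. All Notch2-11cKO arrays were above all WT arrays, at a dim level. The difference was 1.55 ± 0.25 after SRBC (2.92-fold, adjusted p = 0.00399) and 1.63 ± 0.31 untreated (3.1-fold, 0.00937). The untreated call was lost without Notch2-11cKO untreated 2 (0.0998) or WT untreated 1 (0.102) or 2 (0.052).

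Several Clec2 genes encode ligands of NKR-P1 receptors on natural killer cells, whereas Clec2j is annotated as a pseudogene. The brightest Clec2 genes were Clec2d (Clr-b) and Clec2i (Clr-g). Clec2d was at 9.30, 8.81 and 8.82 in Notch2-11cKO SRBC, 9.55 and 8.88 in Notch2-11cKO untreated, 9.34, 8.57 and 8.39 in WT SRBC, and 8.40 and 8.44 in WT untreated. Clec2i was at 8.01, 7.51 and 7.04 in Notch2-11cKO SRBC, 7.57 and 7.61 in Notch2-11cKO untreated, 8.82, 7.91 and 7.69 in WT SRBC, and 7.97 and 8.15 in WT untreated. Neither passed in any comparison on all 10 arrays, although both were as bright as receptors that did. Without both arrays that stood apart Clec2d was higher in untreated Notch2-11cKO cells by 0.80 ± 0.22 (adjusted p = 0.046), and it also passed with only the groups compared (0.0492). With each array's immediate-early level as a covariate Clec2i was lower in Notch2-11cKO after SRBC by −0.75 ± 0.17 (0.0172). Over the 22 members that never passed, differences lay between −0.62 and 0.41 for Notch2-11cKO minus WT after SRBC and between −0.47 and 0.80 in untreated cells. Their SRBC differences lay between −0.78 and 0.27 in Notch2-11cKO and between −0.43 and 0.35 in WT. The range of a gene over the 10 arrays had a median of 0.63 among these 22 and 3.76 among the 19 that passed.

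**Figure D3:**
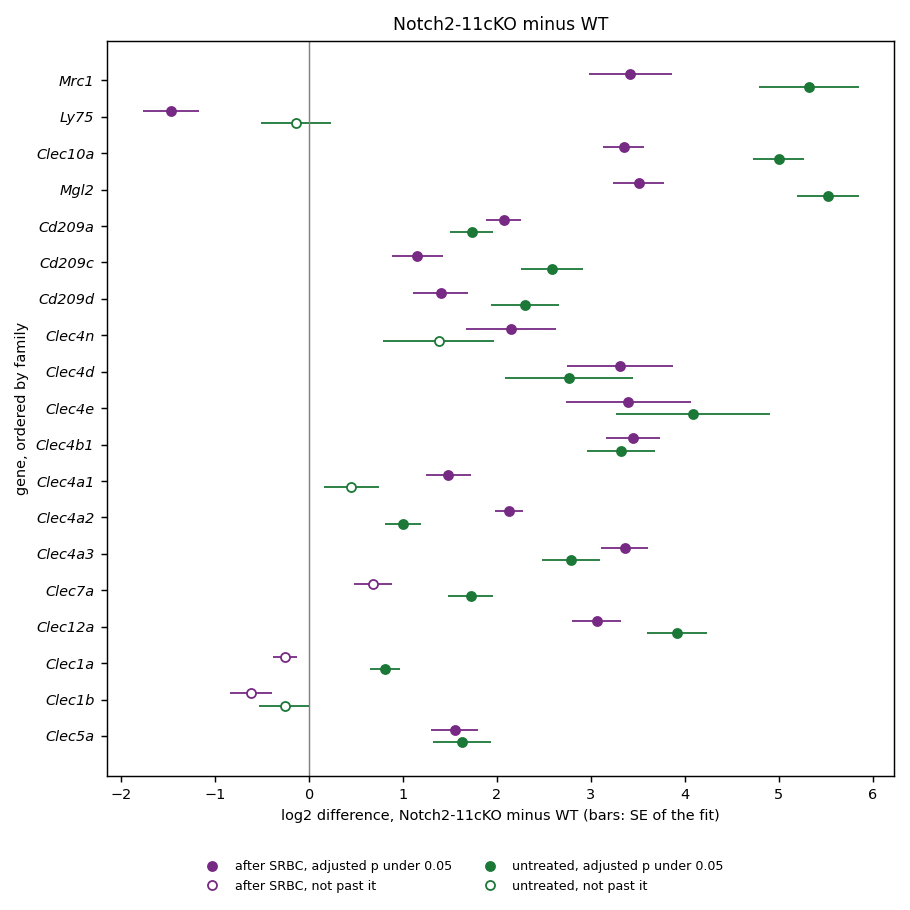
Notch2-11cKO minus WT (log2, horizontal axis) for the 19 members that passed in any comparison, after SRBC (upper mark of each pair) and untreated (lower mark), with bars for the SE and filled marks for adjusted p under 0.05. The largest differences were those of Mgl2, at 3.51 after SRBC and 5.52 untreated, and the only filled mark below 0 was that of Ly75 after SRBC, at −1.47.

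Across the families, 13 members were higher in Notch2-11cKO in both treatments: Mrc1, Mgl2, Clec10a, Cd209a, Cd209c, Cd209d, Clec4d, Clec4e, Clec4b1, Clec4a2, Clec4a3, Clec12a and Clec5a. Clec4n, Clec4a1 and Ly75 passed after SRBC alone, and Clec7a and Clec1a in untreated cells alone. The genotype comparisons of the treatments share no arrays, though they share 1 estimate of the spread. With any single array left out, 12 of the 16 calls after SRBC and 10 of the 15 untreated calls held throughout.

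The SRBC responses were less stable. None of the 4 calls in Notch2-11cKO held with every single array left out: Cd209a was lost without Notch2-11cKO untreated 1 (adjusted p = 0.228) or 2 (0.129) or Notch2-11cKO SRBC 2 (0.0585), and Ly75, Mgl2 and Clec10a without any of 8 arrays each, at adjusted p of at most 0.347, 0.228 and 0.347. The arrays whose loss kept the call were WT SRBC 1 and 2 for Ly75, WT SRBC 1 and 3 for Mgl2, and WT SRBC 1 and Notch2-11cKO SRBC 3 for Clec10a, and the sign stayed the same throughout. WT arrays do not enter this contrast but help set the spread. Ly75 and Cd209a were the WT calls that held without any single array.

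Immediate-early genes are known to be induced during tissue digestion. Of 22 such genes 2 fell after SRBC in Notch2-11cKO and 4 in WT, and none rose in either. Of all genes, 0.166% fell in Notch2-11cKO and 1.97% in WT. The mean log2 of the 22 was 9.47, 9.16 and 8.63 in Notch2-11cKO SRBC, 9.78 and 9.81 in Notch2-11cKO untreated, 9.32, 8.82 and 8.84 in WT SRBC, and 9.95 and 9.88 in WT untreated. It was lower on every SRBC array than on every untreated array, so a fit could not separate it well from treatment. With that mean as a covariate no SRBC response passed in Notch2-11cKO, where the estimates were 2.16 for Ly75 (adjusted p = 0.089), −1.49 for Mgl2 (0.137), −1.54 for Clec10a (0.0988) and −1.11 for Cd209a (0.0884), all of the sign they had without it. In WT those of Ly75 (3.51, 0.0182) and Cd209a (−1.34, 0.0466) passed.

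**Figure D4:**
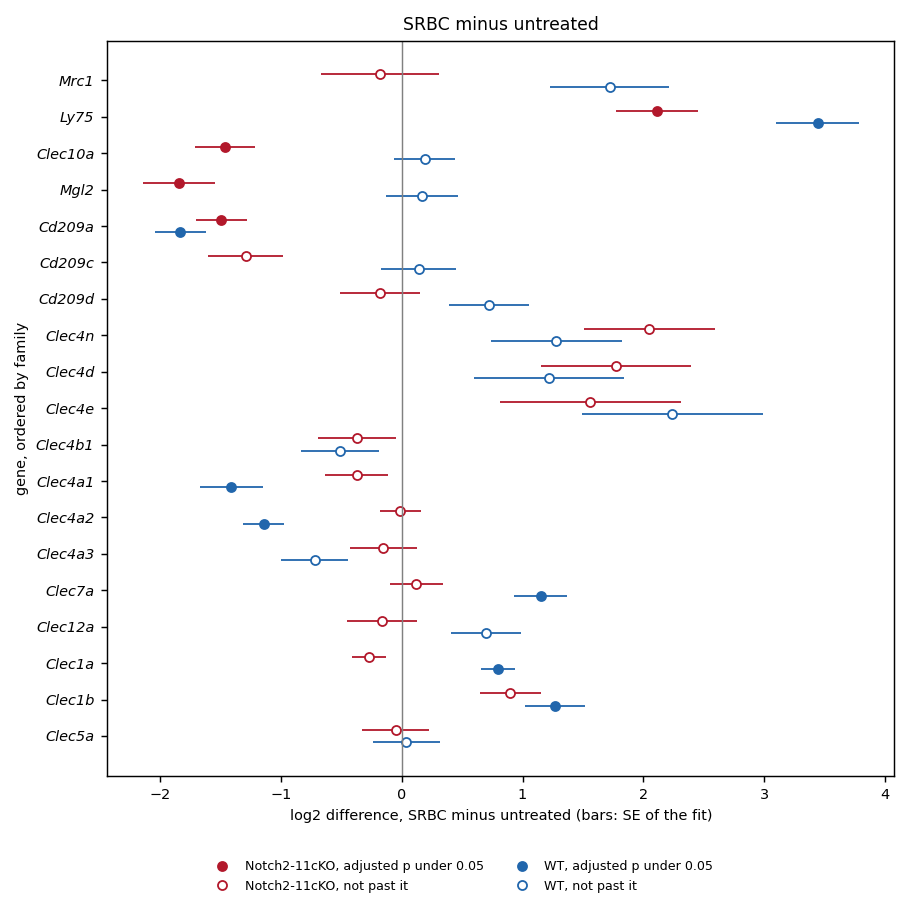
SRBC minus untreated (log2, horizontal axis) for the same 19 members, in Notch2-11cKO (upper mark of each pair) and WT (lower mark), with bars for the SE and filled marks for adjusted p under 0.05. Ly75 was to the right in both genotypes (2.11 and 3.44) and Cd209a to the left in both (−1.49 and −1.83).

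Whether the genotypes differed in their SRBC response was tested by the interaction, the Notch2-11cKO response minus the WT response. None of the 41 members passed in limma, although 9 had an unadjusted p under 0.05, and 0.0201% of all genes passed, 0.01% higher and 0.01% lower. The estimates of smallest p were Clec1a at −1.07 ± 0.20 (adjusted p = 0.15), Mgl2 at −2.01 ± 0.42 (0.214), Clec10a at −1.65 ± 0.35 (0.229) and Clec4a2 at 1.13 ± 0.24 (0.232). For Ly75 it was −1.33 ± 0.48 (0.627) and for Mrc1 −1.90 ± 0.69 (0.627). Without WT SRBC array 1 that of Mrc1 was −2.58 ± 0.27 and passed (0.00601). Without WT SRBC array 1 and Notch2-11cKO SRBC array 3 together, 6 members passed, Mrc1, Clec4a1, Mgl2, Clec4a2, Clec1a and Clec10a, and with array weights Clec1a (0.042) and Mgl2 (0.0465) did. The contrast shares all 10 arrays with the comparisons above, so these values are not separate evidence.

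Of 19 measured genes through which these receptors signal, 3 were higher and 1 lower in Notch2-11cKO after SRBC, where 5.32% of all genes passed. In untreated cells, where 5.11% of all genes passed, 1 was higher and 1 lower. Fcer1g, the shared FcRγ chain, was higher after SRBC by 0.84 ± 0.13 (adjusted p = 0.00269), and Prkcd, a kinase between Syk and Card9, by 1.00 ± 0.16 after SRBC (0.00385) and 1.11 ± 0.20 untreated (0.0069). Hcst (DAP10), a partner chain, was higher after SRBC by 1.10 ± 0.28 (0.0464), Malt1, a partner of Card9 in NF-kB signalling, was lower after SRBC by −0.92 ± 0.20 (0.0214), and Nfatc1, a calcium-regulated factor, was lower in untreated cells by −0.97 ± 0.23 (0.0324). SRBC changed none of the 19 in Notch2-11cKO, where 0.306% of all genes passed. In WT, where 3.79% of all genes passed and 1.97% were lower, it lowered 2. These were Nfatc2, by −1.47 ± 0.28 (0.0154), and Ptpn6, the phosphatase SHP-1, by −1.07 ± 0.22 (0.0205). The median difference of the list was 0.16 after SRBC and 0.06 untreated, beside −0.02 over all genes.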

How the data were processed

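Total RNA of sorted splenic cDC2 was labelled with biotin, per the labels' protocols, and hybridised to 10 arrays with 28853 probe sets. The values are intensity on a linear scale, normalised between arrays by the authors before they were deposited; which method they used was not stated in the labels. No value was missing or at or below 0, and no detection p-values or scanner files were used.

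Values were log2 transformed with no filter on dim genes. Of the probe sets, 21789 carried 1 symbol (platform annotation), 1621 several and 5443 none; the brightest probe set per symbol gave 19938 genes. A limma 3.58.1 fit (R 4.3.3) with 4 group means and a mean-variance trend gave 5 two-sided comparisons (6 residual and 5.25 prior degrees of freedom), with Benjamini-Hochberg adjustment over all genes and a threshold of 0.05. All p of genes are limma's adjusted p unless called unadjusted, and ± gives the SE. The fit was tested on simulated data. Members and lists were chosen with earlier results of these data known. Values are given for every member past the threshold and for 12 fixed ones; of other lists, up to 3 genes per comparison. RefSeq windows were searched for 5 motifs; protein sequences were not used here. Alternatives covered normalisation, probe choice, filter, trend, weights, covariate, block and each array left out. Same-numbered arrays after SRBC deviated together with r of 0.479, −0.218 and 0.403 between genotypes, so the numbers were not taken as pairs.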

Additional observations from a re-analysis of the deposited data

How the results depend on the processing

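No alternative turned the sign of a called difference. The number of members called after SRBC between genotypes (16) was 12 to 16 with 1 array left out, and in untreated cells (15) it was 10 to 15; no other alternative moved either by over 1.5 times. For the Notch2-11cKO SRBC response (4) the range was 0 to 5 with 1 array left out, 2 with only the groups compared, 2 with a replicate block, 0 with the immediate-early covariate and 5 without WT SRBC array 1 and Notch2-11cKO SRBC array 3. For the WT response (7) it was 2 to 9, with 2 under the covariate and 11 without both of those arrays. For the interaction (0) it was 0 to 1, with 2 under array weights and 6 without both arrays. Among calls seen only under an alternative were Cd209c (−1.35, 0.0429) in the Notch2-11cKO response and Cd209b (−0.46, 0.0448) in the WT response with array weights, and Clec7a (0.69, 0.0485) between genotypes after SRBC with the covariate. The replicate block gave 16, 15, 2, 8 and 0 calls in these comparisons; same-numbered arrays share only a number. Groups of 2 and 3 arrays are too small for a test of single outlying arrays. With 2 untreated arrays per genotype, a modest difference could be missed, and for dim members the array signal limits what can be seen.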

Other observations

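Some other lectins and uptake receptors outside the set also differed between the genotypes. Of all genes, 5.32% passed after SRBC and 5.11% in untreated cells. Of 16 further endocytic and pattern receptors, 7 were higher and 1 lower in Notch2-11cKO after SRBC, and 6 higher and 1 lower in untreated cells. Cd36, a scavenger receptor for oxidised lipids and dying cells, was higher by 3.21 ± 0.30 after SRBC (limma adjusted p = 0.0001) and 5.12 ± 0.37 untreated (1.59e-05). Msr1, scavenger receptor A, was higher by 2.66 ± 0.27 (0.000188) and 3.07 ± 0.33 (0.000257), and Tlr2 by 1.99 ± 0.33 after SRBC (0.00411). Nod1, a sensor of bacterial cell wall fragments, was lower in untreated cells by −2.62 ± 0.30 (0.000336). The list's median difference was 0.81 after SRBC and 0.42 untreated, beside −0.02 over all genes. Macrophage and monocyte markers moved with the genotype as well, and their part in these values was not tested.

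Of 14 Siglecs and galectins, 6 were higher and 2 lower in Notch2-11cKO after SRBC, and 4 higher and 2 lower in untreated cells. Lgals1, galectin-1, was higher by 2.08 ± 0.20 after SRBC (0.000111) and 2.15 ± 0.25 untreated (0.000345), while Cd22, an inhibitory Siglec best known from B cells, was lower by −1.26 ± 0.17 (0.00116) and −2.68 ± 0.21 (2.45e-05). Of 21 other genes with a C-type lectin domain, 2 were higher after SRBC, where 5.32% of all genes passed. In untreated cells, where 5.11% of all genes passed, 3 were higher and 1 lower. Their median difference was −0.03 after SRBC and 0.03 untreated, beside −0.02 over all genes. Among them Cd302 was higher by 0.93 ± 0.18 (0.0109) and 2.00 ± 0.22 (0.000269), and Cd93, a receptor linked to clearance of dying cells, by 1.74 ± 0.29 (0.00411) and 1.64 ± 0.35 (0.0186).

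Clec9a, the cDC1 receptor for actin exposed on dead cells and left out of the set, was at 7.62, 6.67 and 7.14 in Notch2-11cKO SRBC, against 6.25, 6.80 and 6.76 in WT SRBC, and at 8.67 and 7.34 in Notch2-11cKO untreated, against 4.30 and 5.71 in WT untreated. The groups overlapped after SRBC (0.54 ± 0.41, 0.573) and not in untreated cells (3.00 ± 0.50, 0.0045). Of 11 cDC1 markers, 3 were higher and 1 lower in Notch2-11cKO in each treatment, where 5.32% of all genes passed after SRBC and 5.11% untreated. Their median difference was 0.01 after SRBC and 0.08 untreated. Their summed intensity was 1545 to 1779 in Notch2-11cKO SRBC, 1736 to 2105 in Notch2-11cKO untreated, 1649 to 1727 in WT SRBC and 2197 to 2432 in WT untreated.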
